A study of Mus musculus with 8 samples.

Results

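The genes described here are those by which the heart takes up fatty acids and burns them. They are 47 genes listed by symbol for their known function (uptake, activation, the carnitine shuttle, beta-oxidation, electron transfer and the handling of lipid droplets), out of 48440 entries in the count table. No measured value of these libraries entered the rule, though the list was chosen with earlier results of these data known. All 47 were found, and all 47 were among the 13771 genes with enough counts to be tested. Cardiomyocytes of C57BL6/J pups at postnatal day 2 were purified from single hearts, and their RNA was sequenced. The male group and the female group held 4 libraries each, 1 male heart and 1 female heart from each of 4 litters, and no treatment or genetic change is named for any of them. Comparisons were therefore made between the sexes and between the litters.

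Fatty acids reach a cardiomyocyte from lipoproteins, which lipoprotein lipase digests at the vessel wall, or from albumin. They cross the membrane with the help of CD36 and the fatty acid transport proteins, are carried by fatty acid binding proteins, and are joined to coenzyme A by long-chain acyl-CoA synthetases. The carnitine shuttle moves them into mitochondria, where repeated rounds of beta-oxidation shorten the chain and pass electrons on to the respiratory chain. The heart of a newborn mouse turns from glucose and lactate towards fatty acids in the days after birth, when the pup begins to suckle.

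Library totals ran from 14226342 counts in the female of litter 3 to 24910243 in the male of litter 1. Genes of the mitochondrial genome took 13.43% to 15.2% of the counts in 7 libraries and 18.46% in the male of litter 4. The labelled cell type was checked first. All 10 cardiomyocyte markers were tested, and their summed level was 64460 to 81970 CPM (read counts brought to a common library total by TMM scaling), lowest in the female of litter 3. Markers of white adipocytes, which also handle much fat, summed to 0 to 0.482 CPM, with Cfd and Lep at 0 in every library. A list of 12 endothelial markers, none at 0 in any library, summed to 23.5, 128, 27.1 and 47.4 CPM in the males of litters 1 to 4 and to 87.3, 201, 27.0 and 36.6 CPM in the females. These are bulk libraries, in which fewer cells of a type and less RNA per cell cannot be told apart. The labels give no day of collection or preparation, so a litter and the day on which it was handled cannot be told apart either.

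Levels of different genes were compared per kilobase (RPKM, that is CPM per kilobase of the longest coding transcript). Fabp3, the fatty acid binding protein of heart and skeletal muscle, stood alone at the top with 2554 ± 262 RPKM (SD, n = 8). Acadl, the long-chain acyl-CoA dehydrogenase, and Acaa2, the mitochondrial thiolase of the last step, followed at 800.1 ± 40.4 and 779.9 ± 71.0 RPKM. Their ranges overlapped each other and not those of Fabp3 above or Hadha below. Hadha, which carries the hydratase and the long-chain dehydrogenase of the trifunctional protein, had 562 ± 36.4 RPKM. Acadvl, the dehydrogenase for very long chains, had 500.1 ± 23.4 RPKM, and Lpl, the lipoprotein lipase, 478 ± 51.0 RPKM. Acadm, the medium-chain dehydrogenase, had 414 ± 26.6 RPKM. The genes from Hadha to Etfa overlapped each neighbour in turn, so their order is not resolved.

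Acsl1, the main long-chain acyl-CoA synthetase of the heart, had 263 ± 11.5 RPKM and Cd36, the membrane fatty acid translocase, 259 ± 27.2 RPKM. Below Cd36 came a gap to Crat, carnitine acetyltransferase, at 173 ± 13.9 RPKM. Cpt1a, the liver form of the outer-membrane carnitine palmitoyltransferase, ranked 30 of 47 at 44.6 ± 7.48 RPKM. Cpt1b, the muscle form, had 5.05 ± 1.12 RPKM. That value is uncertain, because 91.1% of the 100-base windows of Cpt1b also occur in Gm44502, an annotated read-through with the neighbouring gene Chkb. Reads matching both may not have been counted, though Gm44502 has no entry of its own in the count table. Ucp3, a mitochondrial carrier of muscle, had 39.7 ± 8.01 RPKM and Plin2, a lipid droplet coat protein, 29.6 ± 2.02 RPKM. Acsl5 was the lowest of the 47 at 2.30 ± 0.334 RPKM.

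**Figure D1:**
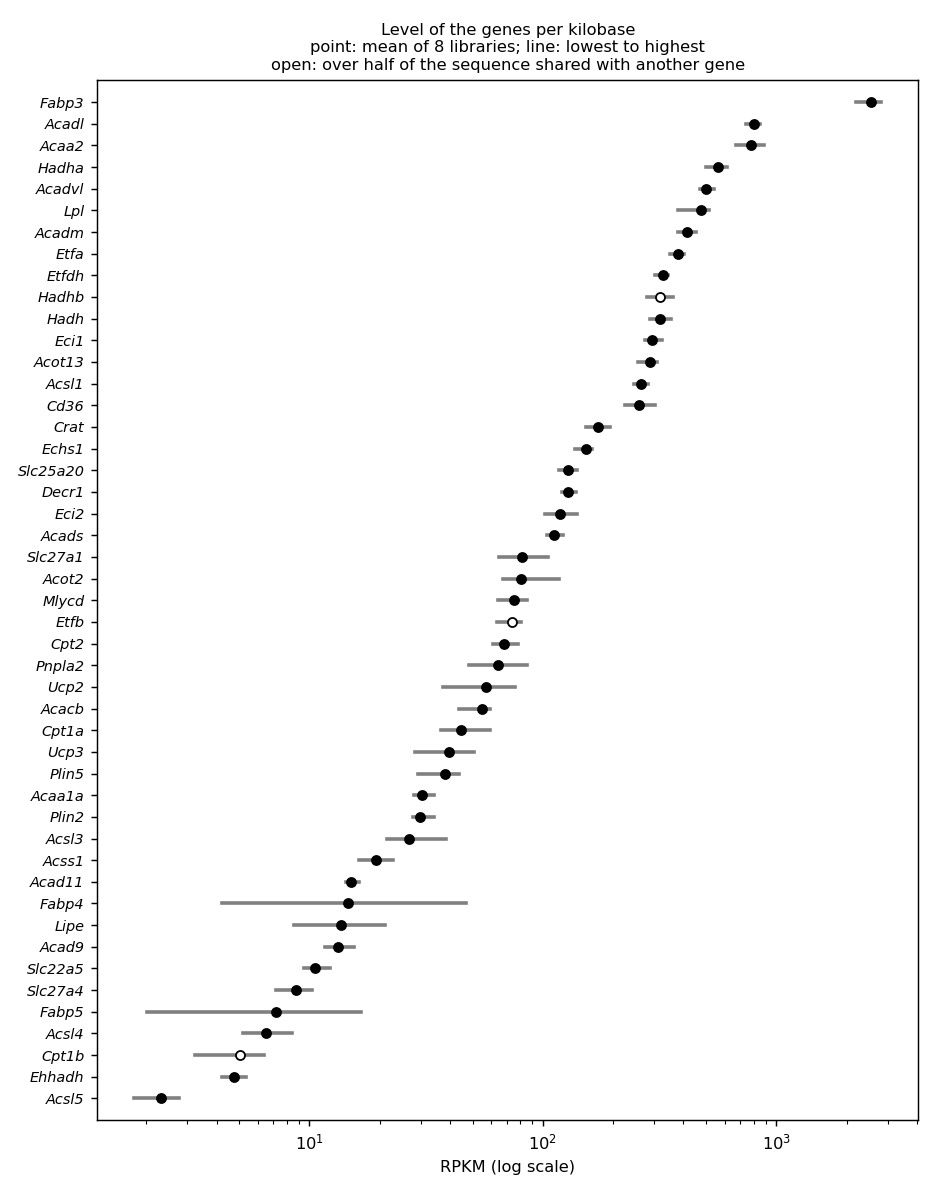
Mean level of each of the 47 genes over the 8 libraries, in RPKM on a log scale, with a grey line from the lowest to the highest library. Fabp3 lies apart at 2554 RPKM and Acsl5 is lowest at 2.30 RPKM, while open points mark Cpt1b, Etfb and Hadhb, whose sequence is largely shared with other annotated genes.

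Sequence sharing limited a few other members. Etfb, a subunit of the electron transfer flavoprotein, shared 65.2% of its windows, with Gm45233, which had 0 counts in every library. Hadhb, the thiolase subunit of the trifunctional protein, shared 52.8%, mainly with Gm13910, which had 110 to 214 counts. Fabp3 shared 21.7% with Fabp3-ps1, which had 152 to 253 counts against 26172 to 57173 for Fabp3. Acot2, a mitochondrial acyl-CoA thioesterase, shared 17.1% with its neighbour Acot1, which had 1811 to 4043 counts. Whether counting used the strand is not given in the sources used here.

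The first comparison asked whether the genes differ between male and female cardiomyocytes. None of the 47 did by edgeR's quasi-likelihood test at an adjusted p under 0.05. Over all genes 6 of 13771 passed, or 0.0436%. At an unadjusted p under 0.05 the count was 0 of 47 members, against 2.14% of all genes. Log2 fold changes, male minus female, ran from -0.85 to 0.30 with a median of -0.03, and 21 of 47 were higher in males (44.7%, against 49.7% of all genes). For the 19 enzymes of beta-oxidation and electron transfer the fold changes lay between -0.11 and 0.05 on the log2 scale, with standard errors of 0.07 to 0.12.

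In this fit, which had no litter term, Ucp3 had the smallest unadjusted p. It had 75.7, 69.4, 104 and 96.9 CPM in the males of litters 1 to 4 and 84.3, 124, 105.5 and 118 CPM in the females. The female was higher in each litter, and the groups overlapped. Its log2 fold change was -0.32 (SE 0.15, unadjusted p = 0.0588 by edgeR). Cd36 had 848, 855, 997 and 1032 CPM in the males and 843, 766, 905 and 801 CPM in the females. Here the male was higher in each litter, again with overlap. The log2 fold change of Cd36 was 0.17 (SE 0.10, unadjusted p = 0.102 by edgeR). With litter as a block, its SE was 0.06 and its unadjusted p 0.0085 by edgeR (adjusted p = 0.267).

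Acacb, the acetyl-CoA carboxylase that makes malonyl-CoA, the inhibitor of carnitine palmitoyltransferase 1, had 469, 495, 491 and 383 CPM in the males. In the females it had 476, 511, 524 and 524 CPM. The male of litter 4 was the lowest, and the groups overlapped. Acacb had a log2 fold change of -0.15 (SE 0.10, unadjusted p = 0.153 by edgeR). Acsl4, the synthetase with a preference for arachidonic acid, had 33.5, 36.6, 44.7 and 31.3 CPM in the males and 33.9, 27.5, 34.1 and 32.5 CPM in the females. The male of litter 3 was highest. Its log2 fold change was 0.19 (SE 0.12, unadjusted p = 0.135 by edgeR).

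Setting each male against the female of its own litter, with litter as a block, raised the calls over all genes from 6 to 29 (0.211%) and left 0 of 47 members called. The lowest adjusted p of a member in that blocked fit was 0.131 for Slc27a1 by edgeR. Unadjusted, 7 members (14.9%) had a p under 0.05 in the blocked fit, against 11.8% of all genes. They were Slc27a1, Pnpla2, Cpt1b, Cd36, Acsl3, Acacb and Acsl4, with an unadjusted p of 0.00075 to 0.047 by edgeR. Ucp3, first in the fit without a litter term, had an unadjusted p of 0.068 by edgeR in the blocked fit. The male was lower in all 4 litters for 12 members (25.5%, against 9.36% of all genes). Summed fibroblast markers were higher in the male of every litter, at 166, 243, 51.8 and 227 CPM in the males of litters 1 to 4 against 111, 153, 32.4 and 108 CPM in the females, and their part in this count was not tested. The 12 members were Slc27a1, Cpt1b, Acads, Acadvl, Acad11, Hadh, Acaa1a, Acaa2, Mlycd, Acacb, Pnpla2 and Ucp3. Only Cd36 and Eci2 were higher in the male of all 4 litters (4.26%, against 10.9% of all genes). In simulated counts, with no litter effect, the test of sex recovered 98.5% of genes changed by 1 on the log2 scale. That is a larger change than any member showed.

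Differences between litters were larger. The litter test (edgeR's quasi-likelihood test of the 3 litter coefficients with sex in the model) called 18 of 47 members, or 38.3%, against 34.6% of all genes. Among genes with a mean of at least 1000 counts it called 16 of 39 members (41.0%) against 49.1%. The range of the litter means, highest minus lowest, was 0.27 for the median member and 0.37 for the median of all genes, as a log2 difference. It was under 0.3 for 28 of 47 members (59.6%, against 37.4% of all genes). Members had more counts, a median of 4462 against 403 over all genes, and sampling noise widens the range at low counts. The range was not compared among genes of like count. Without litter 3 the calls dropped to 8 members and, over all genes, from 4762 to 2117.

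The spread was unequal along the pathway. For the 19 genes of beta-oxidation and electron transfer the median gene varied by 0.19 (log2) between litter means, 17 of 19 ranged over less than 0.3, and 5 were called. For the other 28 genes (uptake, activation, shuttle, thioesterases, malonyl-CoA, lipid droplet and uncoupling) the median range was 0.33, and 13 were called. These are descriptions of lists chosen with earlier results known, and the difference between them was not tested. Over all genes the median range was 0.37. The litter test called 34.6% of all genes and 49.1% of those with a mean of at least 1000 counts. The lists also differed in level, with a median of 380 CPM in the first and 160.7 CPM in the second. The lowest median range of any role was that of the acyl-CoA dehydrogenases at 0.15.

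**Figure D2:**
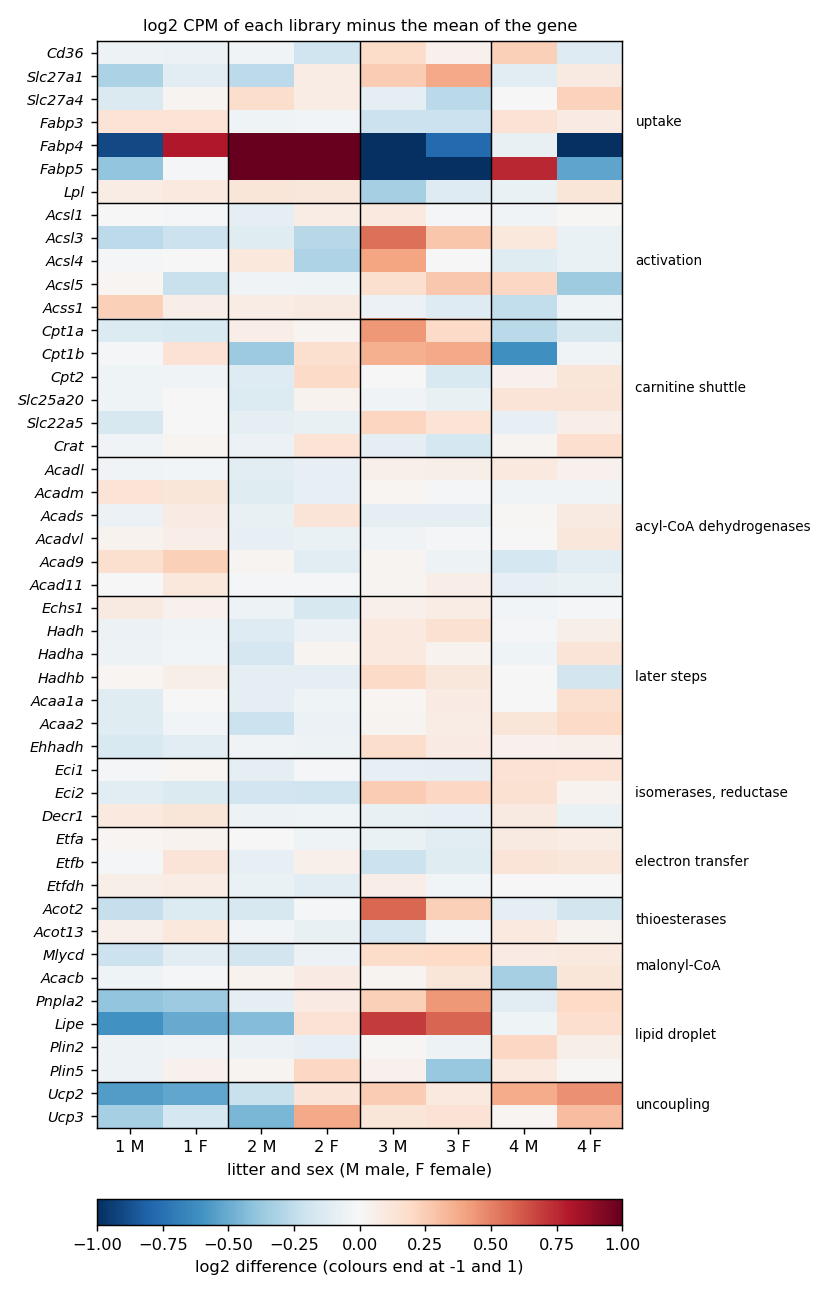
Each row is a gene and each column a library, with colour giving log2 CPM minus the mean of that gene over the 8 libraries, and lines separating litters and roles. Rows of the dehydrogenases and later steps are pale, while Fabp4 and Fabp5 in litters 2 and 3 are deeply coloured. Lipe, Pnpla2, Acsl3 and Ucp2 in litters 1 and 3 or 4 are coloured less deeply.

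Litter 3 differed from the mean of the other 3 litters for more members than any other litter. By the adjusted p of edgeR's test, 14 members were higher in litter 3 (29.8%, against 14.0% of all genes) and 6 were lower (12.8%, against 15.2%). Among genes with a mean of at least 1000 counts, 11 of 39 members were higher (28.2%, against 19.0%) and 4 were lower (10.3%, against 19.1%). Both libraries of litter 3 lay above the other 6 for 13 members (27.7%, against 15.1% of all genes) and below them for 8 (17.0%, against 16.4%). Scaled by library size alone, 15 members were higher and 3 lower, and the share of higher calls over all genes was 59.2% in place of 48.0%. The genes higher in litter 3 include the acyl-chain hydrolases of the lipid droplet, a membrane transporter and acyl-CoA synthetases. They also include the liver and muscle forms of carnitine palmitoyltransferase 1. Those lower include the most abundant binding protein and lipoprotein lipase.

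Upstream sequence is shown for the members higher in litter 3 with the smallest litter p in the lipid droplet, activation and shuttle groups. They were chosen for their level in litter 3, and in the other litters they differ from one another. The 200 bases before the start site are taken from RefSeq on GRCm38.p6, printed 5′ to 3′ on the strand of the gene. Matches to the searched motifs on either strand are in capitals. Of the 47 members 38 matched the table, with 43 start sites. Acsl3 lies on the plus strand at chr1:78657625-78657824, Pnpla2 on the plus strand at chr7:141454988-141455187 and Cpt1a on the plus strand at chr19:3323101-3323300. Lipe has start sites on the minus strand at chr7:25395988-25396187 and chr7:25390113-25390312.
Pnpla2: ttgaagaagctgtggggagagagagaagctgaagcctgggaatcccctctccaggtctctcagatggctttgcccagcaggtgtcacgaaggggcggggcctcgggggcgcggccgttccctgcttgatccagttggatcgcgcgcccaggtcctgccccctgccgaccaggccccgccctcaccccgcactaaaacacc
Lipe, first site: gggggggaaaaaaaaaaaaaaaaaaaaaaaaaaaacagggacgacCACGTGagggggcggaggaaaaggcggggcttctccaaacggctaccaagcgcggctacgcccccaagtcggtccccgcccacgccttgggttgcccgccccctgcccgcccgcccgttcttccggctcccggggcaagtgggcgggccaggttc
Lipe, second site: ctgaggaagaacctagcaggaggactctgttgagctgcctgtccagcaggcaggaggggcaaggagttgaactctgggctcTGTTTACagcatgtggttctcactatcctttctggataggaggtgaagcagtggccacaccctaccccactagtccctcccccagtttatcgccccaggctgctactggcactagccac
Acsl3: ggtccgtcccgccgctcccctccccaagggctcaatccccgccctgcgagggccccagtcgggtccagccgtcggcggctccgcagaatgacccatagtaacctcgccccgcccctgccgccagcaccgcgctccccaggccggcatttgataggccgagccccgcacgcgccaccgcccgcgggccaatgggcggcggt
Cpt1a: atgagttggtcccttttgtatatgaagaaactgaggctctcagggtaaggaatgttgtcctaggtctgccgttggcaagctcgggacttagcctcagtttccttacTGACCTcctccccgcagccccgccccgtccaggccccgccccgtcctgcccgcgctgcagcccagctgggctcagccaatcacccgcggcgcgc

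The motifs searched were AGGTCA (the core of nuclear receptor sites), its direct repeat with 1 base between (the PPAR element), TCAAGGTCA (the extended core of the estrogen-related receptors), GTAAACA (the forkhead core) and CACGTG (an E-box). The direct repeat and the extended core both contain the shorter core. The core of nuclear receptor sites occurred in 11.4% of 32851 promoters and in those of 5 member genes, Acadvl, Cpt1a, Echs1, Plin5 and Ucp3. In Cpt1a it stands at position -94, counted so that the base just before the start is -1, and reads on the opposite strand. The forkhead core occurred in 2.51% of promoters and, among members, in the second site of Lipe at position -119, also on the opposite strand. The E-box occurred in 5.26% and stands at position -155 of the first Lipe site. The direct repeat, found in 0.0335%, and the extended core, found in 0.277%, were in no member promoter searched. A match describes letters in these windows, and binding was not measured.

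Pnpla2 encodes adipose triglyceride lipase, which takes the first fatty acid off stored triglyceride (chr7:141455198-141460743, plus strand, GRCm38). It had 127, 156, 196 and 154 CPM in the males of litters 1 to 4 and 129, 176, 225 and 191 CPM in the females. Both litter 3 libraries were above the other 6, and both litter 1 libraries were below them. Litter 3 was higher than the others by 0.45 on the log2 scale (SE 0.06, edgeR adjusted p = 6.92e-05), and litter 1 changed by -0.50 (SE 0.07). The litter test gave Pnpla2 the smallest adjusted p of the 47 genes, 6.09e-05 by edgeR.

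Lipe, the hormone-sensitive lipase that acts next on diacylglycerol, lies at chr7:25379527-25398710 on the minus strand. It had 31.8, 35.8, 78.6 and 47 CPM in the males and 34.1, 53.4, 72.5 and 54.4 CPM in the females. Litter 3 was again highest and litter 1 lowest, with neither overlapping the other litters. Lipe was higher in litter 3 by 0.86 on the log2 scale (SE 0.11, edgeR adjusted p = 0.000274), and in litter 1 it changed by -0.75 (SE 0.12). Plin2, which coats droplets, had 54.0, 53.7, 56.3 and 64.4 CPM in the males and 54.5, 52.6, 53.9 and 58.1 CPM in the females. Its litter means ranged over 0.20 and were not called (edgeR adjusted p = 0.168). Plin5, the droplet protein that tethers droplets to mitochondria, was not called either.

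Acsl3, a long-chain acyl-CoA synthetase found on lipid droplets and endoplasmic reticulum, lies at chr1:78657825-78707743 on the plus strand. It had 86.2, 95.0, 152 and 111 CPM in the males and 89.1, 85.3, 125 and 98.4 CPM in the females. Both litter 3 libraries were above the other 6. The difference was 0.55 on the log2 scale (SE 0.07, edgeR adjusted p = 1.67e-05). Acsl1, the more abundant synthetase, had 1022, 955.8, 1098 and 999.2 CPM in the males and 1010.3, 1077, 1009 and 1033 CPM in the females. Its litter means ranged over 0.05, the smallest range of the 47 genes (edgeR adjusted p = 0.89). Acsl4 was higher in litter 3 by 0.27 (SE 0.10, edgeR adjusted p = 0.0469), a call lost without litter 2 and with a filter at a mean of 50 counts.

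The ratio of Acsl1 to Acsl3 inside a library does not depend on scaling. On the log2 scale, per kilobase, it was 3.59, 3.35, 2.88 and 3.19 in the males of litters 1 to 4 and 3.52, 3.68, 3.03 and 3.41 in the females. Litter 3 had the lowest ratios. Between litters lay 82.8% of its variance (exact permutation test over all pairings of the libraries, one-sided p = 0.0667, adjusted over the 4 ratio tests 0.133). Left out in turn, the litters moved that share from 48.2% to 90.1%.

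Slc27a1, fatty acid transport protein 1, lies at chr8:71568882-71587302 on the plus strand. It had 182, 189, 269.8 and 208 CPM in the males and 209, 238, 293 and 240.4 CPM in the females. Both litter 3 libraries were above the others, and in each litter the female was higher. Litter 3 was higher by 0.42 on the log2 scale (SE 0.06, edgeR adjusted p = 7.04e-05). Slc27a4, a related transporter, was lower in litter 3 by 0.24 (log2 fold change -0.24, SE 0.09, edgeR adjusted p = 0.048), and lost that call in 4 of 8 alternatives.

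Fabp3 and Lpl, the most abundant uptake genes, moved the other way. Fabp3 (chr4:130308595-130315463, plus strand) had 2295, 2027, 1801 and 2314 CPM in the males and 2302, 2056, 1801 and 2219 CPM in the females. Both litter 3 libraries were lowest, with no overlap. The log2 fold change of litter 3 was -0.29 (SE 0.05, edgeR adjusted p = 0.00107). Lpl (chr8:68880491-68907448, plus strand) had 2060.2, 2123, 1553 and 1869.8 CPM in the males and 2090.2, 2117, 1785 and 2123 CPM in the females. Litter 3 was again lowest in both sexes (log2 fold change -0.31, SE 0.06, edgeR adjusted p = 0.00136). Lpl was not called by the litter test without the male of litter 3 or without that litter, with an adjusted p of up to 0.665 by edgeR. Cd36 did not pass the litter test (range 0.23, edgeR adjusted p = 0.094).

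**Figure D3:**
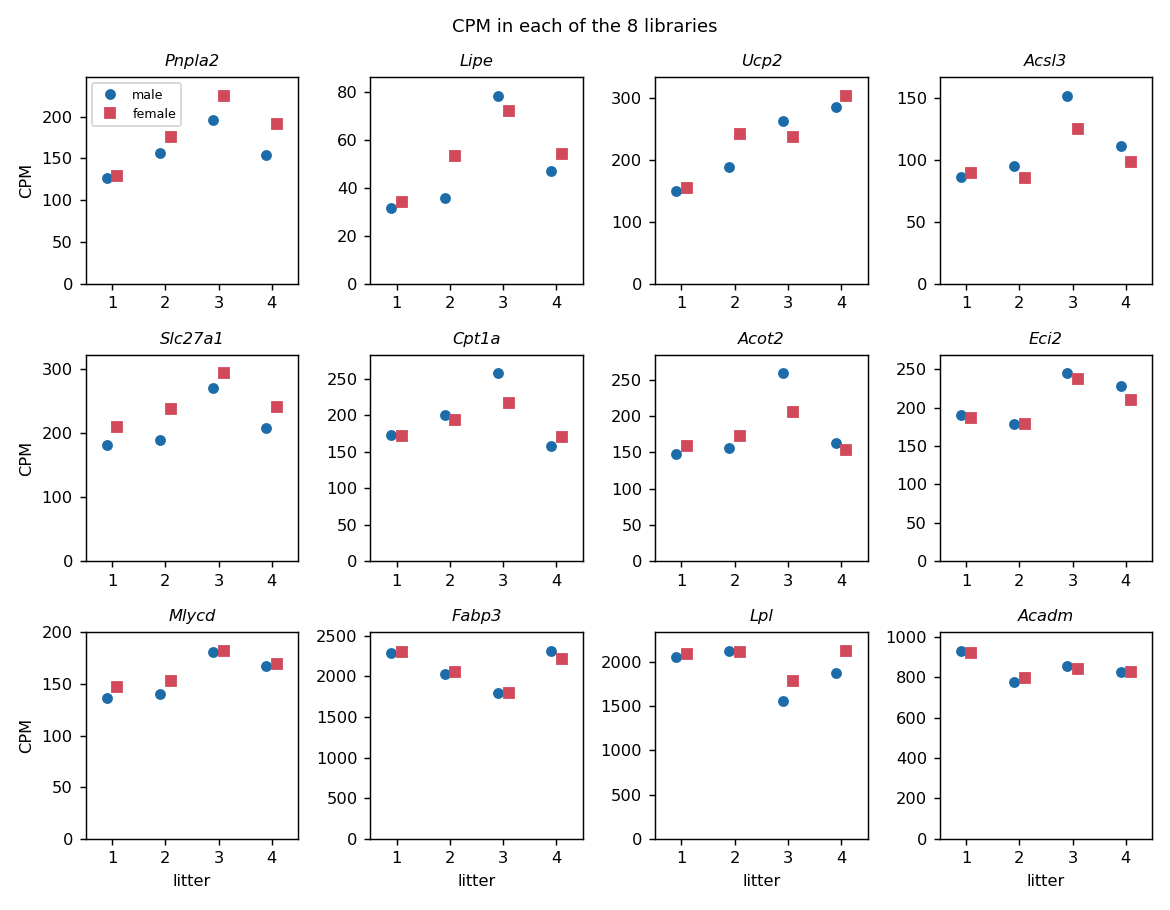
CPM of 12 genes in each of the 8 libraries, by litter, with circles for males and squares for females. Litter 3 stands above the other litters for Pnpla2, Lipe, Acsl3, Slc27a1, Cpt1a, Acot2, Eci2 and Mlycd and below them for Fabp3 and Lpl, Ucp2 is highest in litter 4, and Acadm is highest in litter 1.

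Fabp5 and Fabp4 are binding proteins best known from capillary endothelium, macrophages and adipocytes. Fabp5 had 4.09, 16.3, 2.00 and 9.05 CPM in the males and 5.31, 14.2, 2.06 and 3.74 CPM in the females. Litter 2 was highest and litter 3 lowest, the latter with 46 and 30 counts. The log2 fold change was 1.98 in litter 2 (SE 0.25, edgeR adjusted p = 0.00672) and -1.93 in litter 3 (SE 0.36, edgeR adjusted p = 0.00674). Fabp4 had 4.90, 19.5, 4.43 and 8.71 CPM in the males and 16, 42.1, 5.37 and 3.78 CPM in the females, and was not called (edgeR adjusted p = 0.186). Gpihbp1, which anchors lipoprotein lipase on capillary endothelium, had 0.361, 1.79, 0.130 and 0.447 CPM in the males and 2.06, 5.76, 0.550 and 0.294 CPM in the females. Its log2 fold change was 2.85 in litter 2 (SE 0.34, edgeR adjusted p = 0.00025).

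The 12 endothelial markers moved with these genes. Their summed level was highest in litter 2, at 128 and 201 CPM, and was 27.1 and 27.0 CPM in litter 3. The median log2 fold change of the markers was 2.14 in litter 2 and -1.44 in litter 3, where 0 of 12 were higher, and 7 of 12 were called by the litter test. Macrophage markers summed to 4.97 to 9.50 CPM with Fcgr1 at 0 in every library. The part of endothelial RNA in the results for Fabp4, Fabp5, Gpihbp1 and Lpl was not tested. In litter 3 fibroblast markers were low as well, at 51.8 and 32.4 CPM in the male and the female against 108 to 243 CPM in the other litters. Erythroid markers summed to 532 and 185 CPM there, against 98.6 to 247 CPM. Only the male lay outside that range, and 0 of the 6 erythroid markers tested were called by litter. Cardiomyocyte markers summed to 68010 and 64460 CPM in litter 3, against 71730 to 81970 CPM. Of the 10 cardiomyocyte markers, 8 were called by the litter test and 6 were higher in litter 3, with a median log2 fold change of 0.02. That median hides shifts in both directions. Myh7 had 5598 and 3890 CPM in the male and female of litter 3, against 378.3 to 1861 CPM in the other litters. Myh6 had 16920 and 16100 CPM there, against 20390 to 29070 CPM. Actc1 had 9135 and 7889 CPM, against 12450 to 14630 CPM. The 7 mural cell markers were all called by the litter test, with a median log2 fold change of -1.82 in litter 3 and 1.1 in litter 2. Of the 7, 2 were higher in litter 3. Their sum, most of it Abcc9, was 551.7 and 554.6 CPM there, against 479.5 to 606.3 CPM in the other litters. The part of these shifts in the results for litter 3 was not tested.

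**Figure D4:**
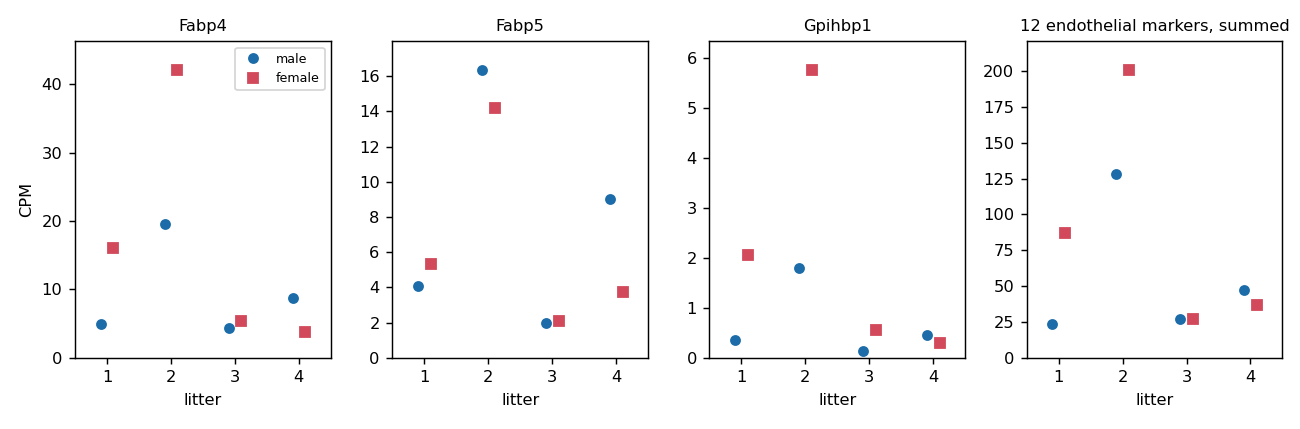
CPM of Fabp4, Fabp5 and Gpihbp1 and the summed CPM of the 12 endothelial markers in each library, by litter, with circles for males and squares for females. All 4 panels are highest in litter 2, where the marker sum reaches 201 CPM, and the marker sum is 27.1 and 27.0 CPM in litter 3.

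In the carnitine shuttle, Cpt1a (chr19:3322334-3385733, plus strand) had 173, 199, 257 and 158 CPM in the males and 171, 194, 217 and 170.4 CPM in the females. Litter 3 was above and litter 4 below the other libraries. The log2 fold change was 0.42 in litter 3 (SE 0.07, edgeR adjusted p = 0.000216) and -0.28 in litter 4 (SE 0.07, edgeR adjusted p = 0.0143). Cpt1b had 14.1, 11.1, 18.3 and 9.33 CPM in the males and 15.8, 15.9, 18.6 and 13.9 CPM in the females. Litter 3 was again highest, by 0.50 on the log2 scale (SE 0.11, edgeR adjusted p = 0.0039), with the uncertainty from shared sequence given above. Slc22a5, the carnitine transporter, was higher in litter 3 (0.24, SE 0.08) and Crat lower (-0.18, SE 0.06), and the calls were lost in 2 and 5 of 8 alternatives, in both cases without litter 1 and without litter 2. Cpt2 and Slc25a20, the inner-membrane transferase and the carrier, were not called in any litter.

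The log2 ratio of Cpt1b to Cpt1a per kilobase was -3.05, -3.59, -3.23 and -3.51 in the males and -2.87, -3.03, -2.97 and -3.04 in the females. Each male lay below every female. The means were -3.35 ± 0.249 and -2.98 ± 0.0776 (SD, n = 4), a difference of -0.37. The two-sided exact permutation p was 0.0286, the smallest that 4 against 4 libraries allow, and 0.114 after adjustment over the 4 ratio tests. With males and females paired by litter, the exact permutation p was 0.125, the smallest that 4 pairs allow, as the male was lower in every litter. The difference does not pass the threshold after adjustment, which at this number of libraries it could not do on its own. The Cpt1b level carries the uncertainty stated above.

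Litter means of the dehydrogenases had a median range of 0.15, those of the electron transfer genes 0.17 and those of the later steps 0.22 (log2). Acadm had 931, 779, 856 and 825 CPM in the males and 922, 797, 841 and 826 CPM in the females. Litter 1 was above and litter 2 below the other libraries, though the litter test did not call it (range 0.23, edgeR adjusted p = 0.051). Acadvl had 1107, 1021, 1059 and 1078 CPM in the males and 1137, 1034, 1068 and 1170.1 CPM in the females. Its range over litters was 0.13 (edgeR adjusted p = 0.293). Hadha had 2169.5, 2009.6, 2413 and 2184 CPM in the males and 2206, 2295, 2312 and 2466 CPM in the females. Litter 3 lay above litters 1 and 2 and overlapped litter 4. The range of its litter means was 0.14 (edgeR adjusted p = 0.336).

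Eci2, an isomerase that prepares unsaturated chains for beta-oxidation, had the largest range of the 19 genes of beta-oxidation and electron transfer, 0.43. It had 189.8, 179, 245 and 228 CPM in the males and 186, 179, 237 and 209.9 CPM in the females. Litter 3 was highest and litter 2 lowest, without overlap. Eci2 was higher in litter 3 by 0.31 on the log2 scale (SE 0.06, edgeR adjusted p = 0.000786). The other called genes here were Acaa2, Acad9, Hadhb and Etfb, with ranges of 0.25 to 0.34, and each lost its litter call in 3 to 14 of the 19 alternatives. Both libraries of litter 2 were below the other 6 for 7 members (14.9%, against 3.6% of all genes), among them Acadl, Acadm, Acadvl, Echs1, Etfdh and Eci2. Of the 7, only Eci2 was called lower in litter 2. The rest had log2 fold changes of -0.09 to -0.14 there, with an edgeR adjusted p of 0.187 to 0.486.

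Acot2, which splits acyl-CoA back to free fatty acid in the matrix, lies at chr12:83987861-83993873 on the plus strand. It had 148, 156, 259 and 163 CPM in the males and 158, 173, 206 and 153 CPM in the females. Both litter 3 libraries were above the rest. The difference was 0.55 on the log2 scale (SE 0.08, edgeR adjusted p = 0.000274). Its neighbour Acot1, the cytosolic thioesterase that shares sequence with it, was also higher in litter 3, by 0.86 (SE 0.09, edgeR adjusted p = 1.9e-05). Reads of the shared windows may have been split between them. Acot13 was not called.

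Mlycd, malonyl-CoA decarboxylase, removes the inhibitor that Acacb makes (chr8:119394878-119411102, plus strand). It had 136, 139.7, 180.5 and 168 CPM in the males and 147, 153, 182 and 169 CPM in the females. Litter 3 was above the other libraries, by 0.26 on the log2 scale (SE 0.06, edgeR adjusted p = 0.00364), and litter 1 changed by -0.22 (SE 0.06). Acacb was not called by litter (range 0.17, edgeR adjusted p = 0.368).

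Ucp2, an uncoupling protein family member of the inner membrane, followed another order (chr7:100493337-100502020, plus strand). It had 149.5, 189, 263 and 285 CPM in the males and 154, 242, 236 and 303 CPM in the females. Litter 1 was below and litter 4 above the other libraries. The log2 fold change was -0.72 in litter 1 (SE 0.08, edgeR adjusted p = 0.000106) and 0.55 in litter 4 (SE 0.08, edgeR adjusted p = 0.00129). In litter 3 it was 0.24 (SE 0.08, edgeR adjusted p = 0.038), and -0.00468 (edgeR adjusted p = 0.979) when litter 1 was left out. Ucp3 did not pass the litter test (range 0.42, edgeR adjusted p = 0.358).

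**Figure D5:**
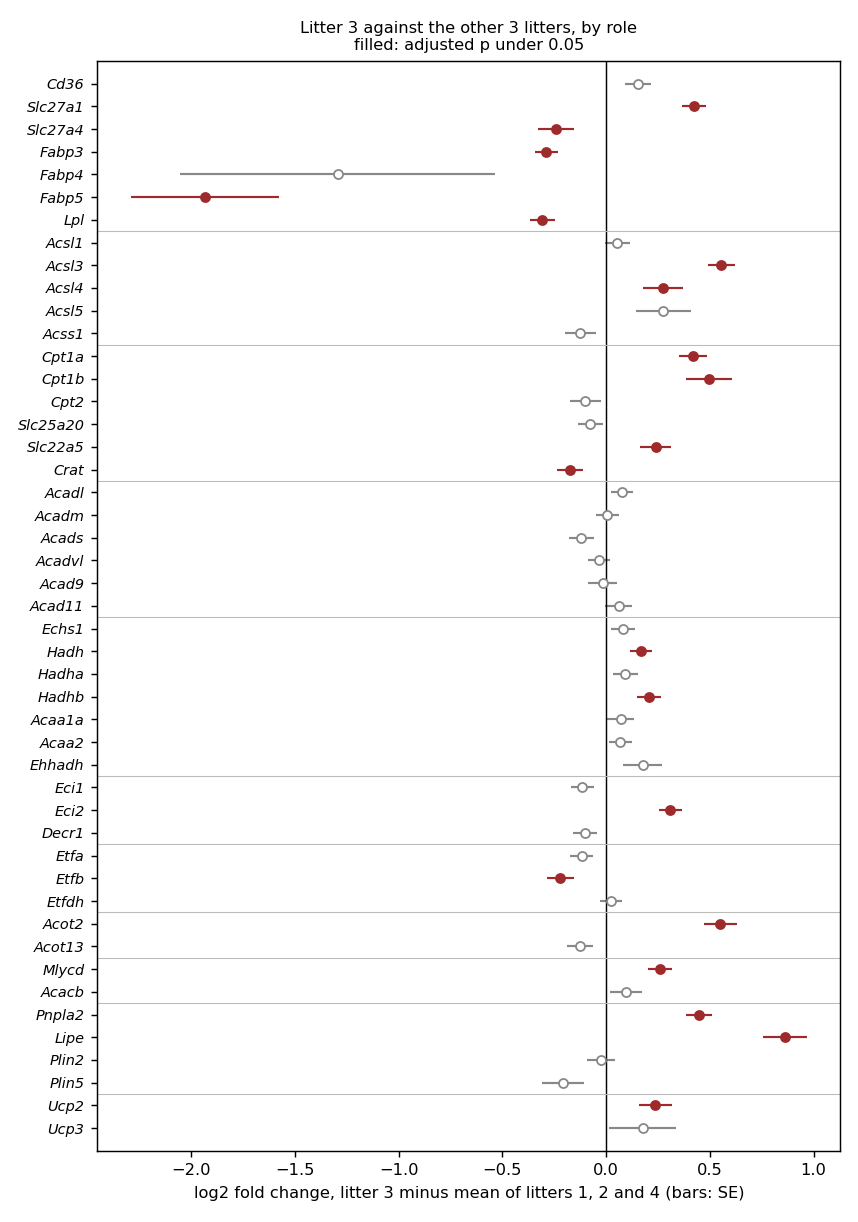
Log2 fold change of litter 3 against the mean of litters 1, 2 and 4 for each of the 47 genes, grouped by role, with bars of 1 standard error and filled points at an adjusted p under 0.05. The 14 filled points to the right include Lipe at 0.86, and the 6 to the left include Fabp5 at -1.93, while all 6 acyl-CoA dehydrogenases have open points.

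The other litters were called for fewer members. Litter 1 was higher for 3 members (6.38%, against 8.52% of all genes), which were Fabp3, Acadm and Acad9. It was lower for 6 (12.8%, against 5.87%), which were Slc27a1, Acsl3, Mlycd, Pnpla2, Lipe and Ucp2. That count was 10 without litter 2 and 3 without litter 3. Litter 2 was higher for Fabp5 alone (2.13%, against 3.45%) and lower for Acsl3 and Eci2 (4.26%, against 1.24%). Litter 4 was higher for Acaa2, Eci1 and Ucp2 (6.38%, against 5.54%) and lower for Cpt1a and Cpt1b (4.26%, against 6.67%). Scaled by library size alone, litter 4 was higher for 1 member and lower for 5, and the share of higher calls over all genes dropped from 45.4% to 15.1%. Left-out litters also moved these small counts: litter 2 was lower for 7 members without litter 1 and for 0 without litter 3, and higher for 0 without litter 3 and 2 without litter 4. Without litter 3, litter 4 was higher for 7 members and lower for 1. In litter 2 scaling by library size alone moved the share of higher calls from 73.5% to 84.9%. Every comparison of a litter with the rest shares libraries with the other comparisons, so their calls are not independent.

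Other genes of fatty acid metabolism were read as a list of 110, of which 91 were tested. By sex 0 were called, and by litter 44 (48.4%, against 34.6% of all genes). In litter 3, 17 were higher and 17 were lower, where the shares over all genes are 14.0% and 15.2%. Among other genes of mitochondrial oxidation, 7 of 18 were called (38.9%), led by Acot1, Acot7 and Pdk4. Pdk4, the kinase that switches off pyruvate dehydrogenase, had 278, 262, 511 and 347 CPM in the males and 333, 382, 555 and 333 CPM in the females. Litter 3 was above the other libraries, by 0.73 on the log2 scale (SE 0.09, edgeR adjusted p = 0.00042).

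Of the peroxisomal genes, 6 of 16 were called by litter (37.5%, against 34.6% of all genes), and 4 were higher in litter 3 with 0 lower (14.0% and 15.2% of all genes). Hacl1, a lyase of peroxisomal alpha-oxidation, Acox3, a peroxisomal oxidase, and Crot, carnitine octanoyltransferase, rose there by 0.53, 0.34 and 0.41 on the log2 scale. Of the genes of lipid storage, 10 of 16 were called (62.5%), with 3 higher and 5 lower in litter 3. Dgat2, which completes triglyceride, was higher by 0.58 (SE 0.07), and Fitm2 and Fitm1, which help droplets to form, had log2 fold changes of -0.56 and -0.33. Of the synthesis genes, 8 of 15 were called (53.3%), with 2 higher (Prkaa2, a catalytic subunit of AMP-activated kinase, and Acly, ATP citrate lyase) and 5 lower in litter 3, among them Scd2, a desaturase. Of other uptake genes, 4 of 8 were called (50%) and all 4 were lower in litter 3. Among them were Dbi, which binds acyl-CoA, and Vldlr, the very low density lipoprotein receptor. The others, Gpihbp1 and Fabp12, had very low levels. Gpihbp1 had 0.130 and 0.550 CPM in the male and female of litter 3, and Fabp12 had 0.0434 and 0.206 CPM. Acss3 and Acss2, short-chain synthetases, were higher in litter 3 by 0.64 and 0.31 on the log2 scale.

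Of the regulators, 7 of 14 were called by litter, against 34.6% of all genes. In litter 3, 2 were higher and 1 was lower, where the shares over all genes are 14.0% and 15.2%. Rxrg, a retinoid X receptor, had 6.54, 3.91, 2.00 and 3.13 CPM in the males and 5.10, 5.53, 2.00 and 4.45 CPM in the females. It was lowest in litter 3 (log2 fold change -1.23, SE 0.23, edgeR adjusted p = 0.00092). Rxra, its widely expressed relative and the partner of the PPAR receptors, was higher there by 0.30 (SE 0.06). Ppargc1a was also higher in litter 3, by 0.26 (SE 0.06, edgeR adjusted p = 0.0049). Ppara, the PPAR receptor that drives genes of fatty acid oxidation, had 25.9, 25.3, 20.8 and 17.3 CPM in the males and 23.9, 22.9, 22.1 and 16.6 CPM in the females. Both libraries of litter 4 were below the rest (log2 fold change -0.47, SE 0.09, edgeR adjusted p = 0.0035), and in litter 3 the fold change was -0.02 (SE 0.09).

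Leaving out libraries set apart the firmer calls. Of the 18 members called by litter, Cpt1a, Eci2, Mlycd, Pnpla2, Lipe and Ucp2 stayed called in all 19 alternatives. Slc27a1, Fabp3, Acsl3 and Acot2 lost the call without litter 3 only. Cpt1b, like Lpl, lost it without the male of litter 3 or without litter 3, and Fabp5 lost it without either library of litter 3 or without both. Acss1, mitochondrial acetyl-CoA synthetase, lost it in 11 and Etfb in 14. In simulated counts, with the same spread set for every gene, the litter test recovered 88.5% of genes changed by 0.5 on the log2 scale in a litter. Smaller differences, such as those of most beta-oxidation genes, could therefore be missed at this number of libraries.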

How the data were processed

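RNA of purified cardiomyocytes was sequenced in 8 libraries (4 male, 4 female, 1 of each from 4 litters); per the labels' protocols, a stranded kit was given 1 µg of total RNA, with 20 M single-end reads of 100 bases as the aim for each library. The labels give the molecule as polyA RNA and the kit as one for total RNA, and this was not resolved. The authors deposited raw read counts per gene symbol, and per the submitters' processing notes they used STAR 2.7.3a and mm10, while counter, annotation and strand setting are not given in the sources used here. No column of another series was present.

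Counts were fitted with edgeR 4.0.16 in R 4.3.3 (filterByExpr on sex, TMM, robust quasi-likelihood F test) with Benjamini-Hochberg adjustment over all 13771 genes and a threshold of 0.05. The test of sex had no litter term (6 residual degrees of freedom), and litter was tested with sex in the model (3), as was each litter against the mean of the other 3. Standard errors are the log2 fold change over the square root of F. Lengths, positions and shared 100-base windows came from GENCODE M21 on GRCm38, and promoters from RefSeq. Ratios were tested by exact permutation with scipy 1.17.1. Alternatives were other scalings and filters, DESeq2 1.42.0, left-out libraries and litters, a litter block, and, added after seeing the data, estimates without the robust option.

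Named in every library were 11 members set by role (Cd36, Lpl, Fabp3, Acsl1, Cpt1a, Cpt1b, Acadm, Acadvl, Hadha, Plin2, Ucp3), the 12 with the smallest litter p and the 4 with the smallest sex p, and other pathway genes only where called. Fabp4, Fabp12, Gpihbp1, Acot1, Ppargc1a, the cardiomyocyte markers given singly and the genes named by count alone were added after their values were seen. Members and lists were chosen with earlier results of these data known. The labels state that a sample's number is its litter, and after removal of the sex means the male and female of litters 1 to 4 correlated across genes at 0.506, 0.503, 0.696 and 0.367, so the numbers pair the samples. Libraries of a sex differed by 10.3 to 49.2 times the sampling noise (chi-square per degree of freedom, 12 pairs), so none was a repeat. The tests were checked on simulated data, in which 3.43% of the calls by sex and 3.28% by litter were false. Every simulated gene had the same spread beyond sampling noise, and no gene of low level was changed. The check of sex had no litter effect. These rates and the shares recovered need not hold for the measured libraries.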

Additional observations from a re-analysis of the deposited data

Results flagged for a closer look

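In groups of 4 libraries of a sex, each member and each of the 2 log2 ratios was checked for a library that lay apart by Dixon's criterion (a large gap relative to the range of the group). Of 98 groups 3 had one, and chance gives about 4.9. Lpl had 1785 CPM in the female of litter 3, against 2090.2 to 2123 CPM in the other females. Acot2 had 259 CPM in the male of litter 3, against 148 to 163 CPM in the other males. Acad9, an assembly factor of complex I with dehydrogenase activity, had 61.2 CPM in the female of litter 1, against 48.0 to 50 CPM in the other females.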

How the results depend on the processing

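Members called by sex stayed at 0 of 47 in all 16 alternatives of the test of sex, including the fit with litter as a block, in which the genes called over the whole table rose from 6 to 29. Leaving out a library or a litter gave 2117 to 4778 genes and 8 to 23 members called by litter, and the lowest values of both came without litter 3. Over left-out litters, members lower in litter 1 numbered 3 to 10, those higher in litter 2 numbered 0 to 2 and those lower 0 to 7, and those higher in litter 4 numbered 2 to 7 and those lower 1 to 3. Members called higher in litter 3 numbered 11 to 16. Scaling by library size alone gave 1 member lower in litter 2, 3 lower in litter 3, 1 higher in litter 4 and 5 lower in litter 4, and a filter at a mean of 50 counts gave 1 lower in litter 2. That scaling shifted the median of all genes by at most -0.0764 on the log2 scale. Over left-out litters, Ucp2 in litter 3 ran from -0.00468, without litter 1, to 0.479. The block left the ratio of Cpt1b to Cpt1a at -0.37 and that of Acsl1 to Acsl3 at -0.161. The cause of these changes was not tested, beyond the smaller number of libraries. With 1 library left in a litter, its spread was taken to be that of the other litters. Estimates without the robust option, added after seeing the data, gave 4427 genes and 17 members called by litter. A pair of pups a litter limits what can be said of any litter, and the female of litter 3 had the fewest counts.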
